A study of Mus musculus with 20 samples.

Results

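The genes described are those of the integrin and laminin families. They were taken as the protein-coding rows of the deposited table of CPM values (read counts scaled to the depth of each library) whose mouse symbol begins with Itga or Itgb followed by a number or by d, e, l, m, v or x, with integrin-binding proteins and integrin-like genes left out, or whose symbol is Lama, Lamb or Lamc followed by a number. This gave 38 genes of 25869 rows, of which 20958 are protein-coding: 18 integrin alpha chains, 9 integrin beta chains and 11 laminin chains. The choice used symbols only and no measured value.

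The series holds 20 mouse RNA-seq libraries from a study that built a CRISPR activation strain, dCas9a-SAM, in which a catalytically dead Cas9 fused to VP64 and the MS2-p65-HSF1 activator are expressed from a CAG promoter at the Rosa26 locus in all tissues. Mouse embryonic fibroblasts (MEFs) came from wild-type embryos (WT, 2 libraries) or from dCas9a-SAM KI/+ embryos that carried no guide (2), a non-targeting guide (sgNT, 2) or a guide to the Bcl-2 promoter (sgBcl-2, 4 libraries, a pair from each of 2 MEF lines). The B cell samples with the same activator and guide were 6 cultured lymphoma lines of the genotype Eµ-Myc/dCas9a-SAM KI/+ with sgBcl-2, 4 positive for surface IgM and 2 negative, each numbered here in the order of the mouse numbers in the labels, and 2 primary IgM-positive tumours, all from lethally irradiated C57BL/6-Ly5.1 recipients transplanted with guide-transduced haematopoietic stem and progenitor cells in which the Eµ-Myc transgene drives Myc in B cells. The 2 mouse preB-ALL lines, driven by BCR-ABL1 (p190T/+) and carrying neither activator nor guide by their labels, were the leukaemia comparison, and their titles also name an Erg allele with different Cre alleles, CreERLSLErg in line 1 and RagCreErg in line 2. No treatment was applied to any library. Each lymphoma line grew out of the tumour of 1 mouse, each MEF group rests on 2 lines, and host cells can remain in a primary tumour.

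Integrins are receptors made of 1 alpha and 1 beta chain that join the cell surface to the matrix or to other cells and, through talin and kindlin, to actin. Laminins are trimers of an alpha, a beta and a gamma chain that form the core of basement membranes and are themselves ligands of the alpha3, alpha6 and alpha7 integrins. Fibroblasts use the beta1 and alphav receptors to hold fibronectin and collagen, whereas B cells rely on alpha4beta1, alpha4beta7 and alphaLbeta2 (LFA-1) for adhesion to VCAM-1, MAdCAM-1 and ICAMs.

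The libraries held 12474885 to 26678417 reads in the table, and 3 reads corresponded to 0.112 to 0.240 CPM, so that levels under about this range were at the limit of counting. Bcl2, the target of the guide, was at 13.4 and 13.7 CPM in the sgNT MEFs, 46.8 to 71.8 CPM in the sgBcl-2 MEFs and 99.4 to 165 CPM in the lymphoma lines, in the order of the labels. The B cell marker list summed to 1210 to 2084 CPM in the lymphoma lines, 5445 and 5754 CPM in the tumours and 4093 and 7386 CPM in the preB-ALL lines, against 12 to 25 CPM in the MEFs. WT MEF library 2 stood apart: its macrophage list summed to 318 CPM against 8.75 to 14.3 CPM in the other MEF libraries, its epithelial list to 65.2 against 0.633 to 20.5 CPM, its endothelial list to 53.0 against 6.86 to 18.5 CPM, its skeletal muscle list to 256 against 63.4 to 191 CPM, and its fibroblast list to 2738 against 9663 to 17900 CPM. The preB-ALL libraries carried 3021 and 1396 CPM of the fibroblast list, with 9 and 10 of its 12 genes at or above 1 CPM and Dcn at 0 in both, against 3.9 to 56.3 CPM in the lymphoma lines. The tumours carried 31.5 and 24.1 CPM of the macrophage list against 2.66 to 5.35 CPM in the lines. In bulk RNA, fewer cells of a type and less RNA per cell cannot be told apart.

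Promoter windows (250 bases before to 50 after the annotated start, RefSeq, build GRCm38.p6) were found for 24 of the 38 genes, in 27 entries of 32851. A set of 3 is shown because these genes carried much of the variation described below: Itga3 differed among the MEF groups, Itga4 was the leading alpha chain of the lymphoma lines and tumours, and Itgb7 was the member most different in level between the tumours and their lines. Capitals mark matches, on either strand, to the letters GGGCGG (SP1 box), TGTGGT (RUNX core), CCGGAA (ETS core), TGANTCA (AP-1 site) or CACGTG (E-box); the Itga3 window lies at chr11:95076665-95076964 (- strand), the Itga4 window at chr2:79255176-79255475 (+ strand) and the Itgb7 window at chr15:102231886-102232185 (- strand).
Itga3: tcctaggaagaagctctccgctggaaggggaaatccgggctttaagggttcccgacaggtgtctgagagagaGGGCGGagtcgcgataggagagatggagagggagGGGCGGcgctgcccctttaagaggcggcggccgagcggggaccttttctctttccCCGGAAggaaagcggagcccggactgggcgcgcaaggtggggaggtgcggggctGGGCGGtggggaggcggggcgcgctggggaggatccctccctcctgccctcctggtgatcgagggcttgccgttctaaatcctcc
Itga4: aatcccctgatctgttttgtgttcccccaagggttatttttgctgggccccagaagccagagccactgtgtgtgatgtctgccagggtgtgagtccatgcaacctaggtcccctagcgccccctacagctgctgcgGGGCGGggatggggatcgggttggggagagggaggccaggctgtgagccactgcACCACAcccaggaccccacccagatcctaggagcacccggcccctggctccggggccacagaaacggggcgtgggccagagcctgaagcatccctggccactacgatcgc
Itgb7: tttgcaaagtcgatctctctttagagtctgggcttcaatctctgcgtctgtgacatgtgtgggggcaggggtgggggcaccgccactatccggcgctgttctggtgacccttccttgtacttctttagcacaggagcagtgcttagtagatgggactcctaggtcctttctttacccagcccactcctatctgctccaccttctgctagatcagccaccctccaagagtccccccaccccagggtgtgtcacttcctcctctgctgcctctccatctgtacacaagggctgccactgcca
The Itga3 window shown held 3 SP1 boxes and 1 ETS core, and a second Itga3 entry, at chr11:95069149-95069448 (- strand), held 1 SP1 box, 1 RUNX core and 1 AP-1 site; the Itga4 window held 1 SP1 box and 1 RUNX core, and the Itgb7 window none of the letters searched. Over the family, 12 of 27 entries held the SP1 box, against 35.7% of all entries, 3 the RUNX core (16.8% of all), 2 the ETS core (14.9%), 3 the AP-1 site (7.81%) and 0 the E-box (7.15%). These are matches of letters in a window and not measured binding sites.

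Across the 10 MEF libraries, 24 of the 38 genes were at or above 1 CPM in every library, whereas 9 were so in all 6 lymphoma lines, 20 in both tumours and 22 in both preB-ALL lines. The 9 genes of the lymphoma lines were Itga4, Itga6, Itga9, Itga10, Itgav, Itgb1, Itgb2, Itgb5 and a single laminin, Lamc1. In the lines 16 genes stayed under 1 CPM in every library. The summed laminin level was 908 to 1402 CPM in the MEFs, 73.7 to 117 CPM in the lymphoma lines, 66.0 to 69.6 CPM in the tumours and 255 to 323 CPM in the preB-ALL lines. The summed integrin level was 2165 to 4867 CPM in the MEFs, 566 to 709 CPM in the lines, 640.0 to 1041 CPM in the tumours and 803 to 1040.1 CPM in the preB-ALL lines.

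**Figure D1:**
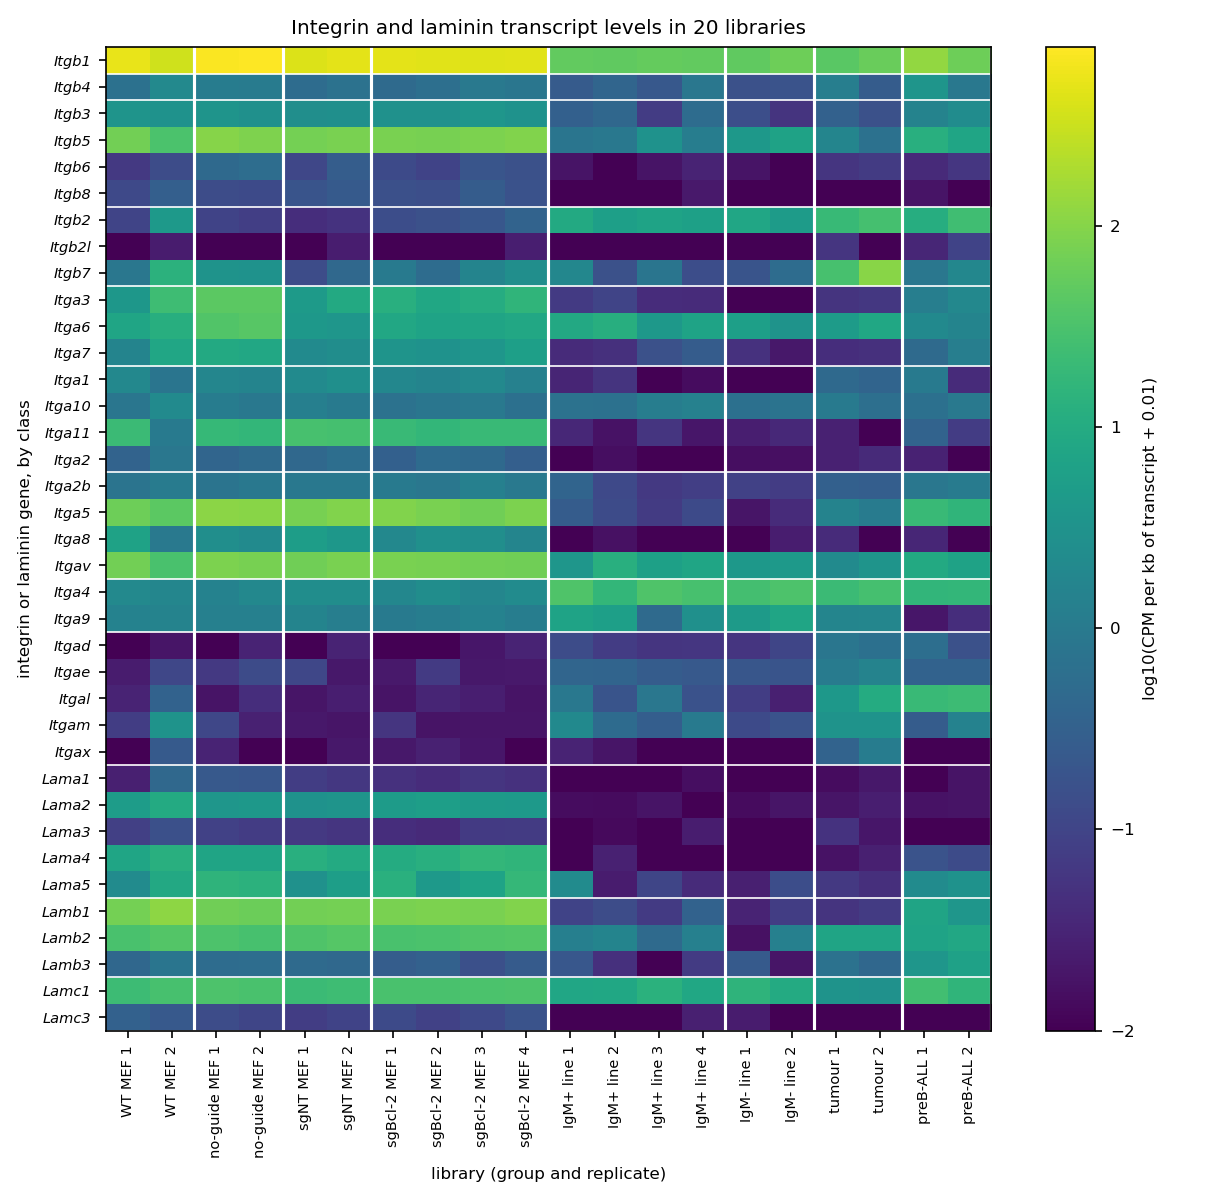
Level of 37 integrin and laminin genes (rows) in each of the 20 libraries (columns), as log10 of CPM per kb of transcript plus 0.01, on a colour scale. The rows of Itgb1, Lamb1, Lamb2 and Lamc1 are bright in the MEF columns, and in the lymphoma lines Itgb1 and Itga4 stand highest.

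Per kb of transcript, Itgb1, the beta chain shared by the largest set of integrins, was the most abundant member in each MEF group, at 741 ± 42.9 CPM per kb without a guide, 457 ± 31.8 with sgNT (SD, n = 2 each) and 472 ± 17.5 with sgBcl-2 (SD, n = 4). Itga5, the fibronectin receptor chain, followed at 107 CPM per kb without a guide and 85.0 with sgNT. In the 6 lymphoma lines the order was Itgb1 at 53.1 ± 5.75 CPM per kb, Itga4 at 29.2 ± 6.74 and Lamc1 at 10.4 ± 3.01 (SD, n = 6), and these did not overlap between libraries. Itgb2, Itga6 and Itgav followed at means of 6.74, 6.70 and 6.27 CPM per kb and did not differ beyond their spread. Their ranges overlapped with that of Lamc1, which stood above them by the mean. In the tumours Itgb7 led by the mean at 68.0 ± 54.6 CPM per kb (SD, n = 2), which overlapped with Itgb1 at 50.9. In the preB-ALL lines Itgb1 came first at 93.9 ± 42.1 CPM per kb and was followed by Itgal, the alpha chain of LFA-1, at 21.4 ± 0.94 (SD, n = 2), which overlapped with Lamc1 (15.5 to 25.7) and Itgb2 (11.0 to 24.9).

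Set against the summed level per kb of the 9 beta chains, Itgb1 made up a median of 84.3% to 87.8% in the MEF groups, 80.0% to 86.6% in single lymphoma lines, 80.9% and 63.0% in preB-ALL lines 1 and 2 and 45.2% and 30.4% in tumours 1 and 2. The tumours were the samples in which Itgb1 was under 50% of the beta chains, with Itgb7 at 30.9% and 54.9% in the same order. Among alpha chains Itga4 made up 35.1% to 72.1% in the lymphoma lines (median 60.9%), 46.8% to 50.4% in the tumours, and 21.9% to 24.2% in preB-ALL. Among laminin chains Lamb1 led in the MEFs with 40.7% to 52.3%, Lamc1 led in the lymphoma lines with a median of 84.1%, and Lamb2 led in the tumours with 63.8% to 67.5%.

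**Figure D2:**
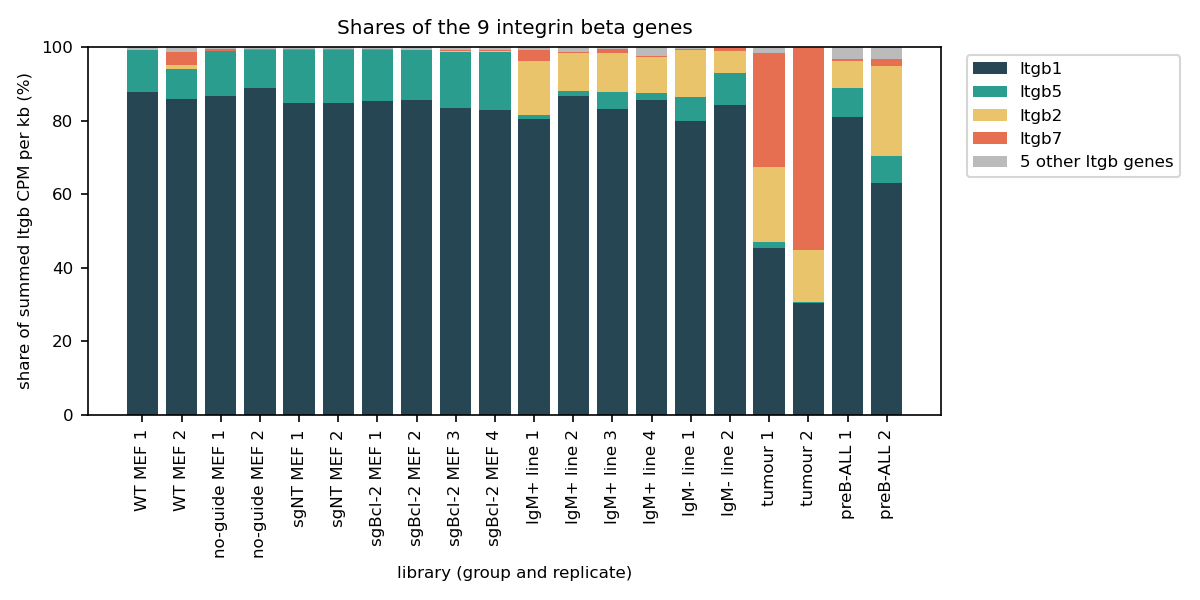
Share (percent) of each of the 9 integrin beta chains in their summed level, CPM per kb, in each of the 20 libraries, as stacked bars from 0 to 100. Itgb1 fills most of each bar except in the tumours, where Itgb7 takes 30.9% and 54.9%.

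The first comparison asked what the activator with a non-targeting guide changed relative to WT MEFs. No member passed the test: 0 of 31 tested were called in either direction by limma at an adjusted p of 0.05, as were 0% of the 14560 genes tested. At an unadjusted p under 0.05 there were 3 members, Itga6, Lama2 and Lamc3, each with an adjusted p of 0.80, beside 4.05% of all genes, DESeq2 called 1 (Itgb7), beside 0.57% of all genes, and edgeR and voom called 0. Itga6, a laminin receptor chain, was at 32.8 and 50.8 CPM in WT and 17.3 and 16.2 CPM in sgNT MEFs. Both WT values were above both sgNT values.

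The 2 WT libraries lay far apart for several members. Itga11, a collagen receptor chain of fibroblasts, was at 104 and 5.13 CPM in WT libraries 1 and 2 and at 147 and 140.4 CPM in sgNT. Itga3, a laminin receptor chain, was at 18.6 and 116 CPM in WT and 22.1 and 44.8 CPM in sgNT. Itgb7, a beta chain of leukocytes, was at 2.28 and 36.9 CPM in WT and 0.341 and 1.16 CPM in sgNT. Library 2 was the low one for Itga11 and the high one for Itga3 and Itgb7. It also held the highest MEF level of the leukocyte genes Itgam (15.3 CPM, against at most 0.474 in the other MEFs) and Itgb2 (13.1 CPM, against at most 1.03), the library whose macrophage list summed to 318 CPM and epithelial list to 65.2 CPM. The part of other cell types in these values, Itga3 included, was not tested. Without WT library 1 the count was 22 members, beside 53.4% of all genes tested, and without WT library 2 it was 6, beside 11.2%.

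Between sgNT and no-guide MEFs, both dCas9a-SAM KI/+, 19 of 31 members tested were called, 5 higher and 14 lower in sgNT. Of all 14655 genes tested, 41.1% were called, 20.3% higher and 20.9% lower. The median log2 difference of the members was -0.29 and that of all genes 0.00. The laminin receptor chains fell together: 3 of 3 were lower in sgNT. The comparison holds 2 libraries a group, so the p-values rest on the spread between these libraries and on variance shared across genes. The effect of a guide and that of infection with its vector cannot be told apart.

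Itga6 was at 155 and 180.2 CPM without a guide and 17.3 and 16.2 CPM with sgNT. It fell by 3.33 ± 0.09 (log2, SE), the lowest adjusted p among members at 1.99e-06. Itga3 was at 224 and 221 CPM without a guide and 22.1 and 44.8 CPM with sgNT, a fall of 2.83 ± 0.28 (adjusted p = 0.000264). In both genes the no-guide libraries lay close together and far above sgNT. Itga7, the laminin receptor chain of muscle, was at 37.8 and 34.8 CPM and 8.87 and 9.97 CPM in the same order, and fell by 1.95 ± 0.11 (adjusted p = 2.71e-05).

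The laminin chains did not move as one. Lama5, the alpha chain of most adult basement membranes, was at 171 and 154 CPM without a guide and 33.5 and 63 CPM with sgNT, lower by 1.83 on the log2 scale (log2 difference -1.83 ± 0.26, adjusted p = 0.00119). Lama4, the alpha chain of mesenchymal and vessel laminins, was at 43.5 and 43.3 CPM and 73.1 and 59.5 CPM, higher in sgNT by 0.59 ± 0.09 (adjusted p = 0.0019). The groups did not overlap for either gene, and their directions were opposite. Of the other laminins, Lama1, Lama2 and Lamc1 were lower, with log2 differences of -1.67, -0.31 and -0.51, and the beta chains gave 0 calls in 3 tested.

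Itgb1 was at 2712 and 2943 CPM without a guide and 1656 and 1827 CPM with sgNT, and fell by 0.72 ± 0.13 on the log2 scale (adjusted p = 0.0034). Itgb7 was at 8.49 and 8.39 CPM without a guide and 0.341 and 1.16 CPM with sgNT, a fall of 3.53 ± 0.45 (adjusted p = 0.000763). Both beta chains thus lay wholly below the no-guide libraries in sgNT. Itgb4, the hemidesmosome chain, and Itgb6, an epithelial partner of alphav, were also lower, with log2 differences of -0.89 and -1.49, as was Itgb5 with -0.29.

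The collagen receptor chain Itga11 was at 94.8 and 83.8 CPM without a guide and 147 and 140.4 CPM with sgNT, and rose by 0.67 ± 0.08 (adjusted p = 0.000436). Itga8, a mesenchymal receptor chain for nephronectin, was at 14.9 and 12.5 CPM and 30.7 and 22.8 CPM, a rise of 0.94 ± 0.15 (adjusted p = 0.00193). The higher sgNT values did not overlap with the no-guide values in either gene. Itga1, a second collagen receptor chain, and Itga4 rose by 0.53 and 0.55. Itga5 was lower with a log2 difference of -0.36, whereas Itgav, at 602 and 552 CPM without a guide and 484 and 553 CPM with sgNT, overlapped.

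**Figure D3:**
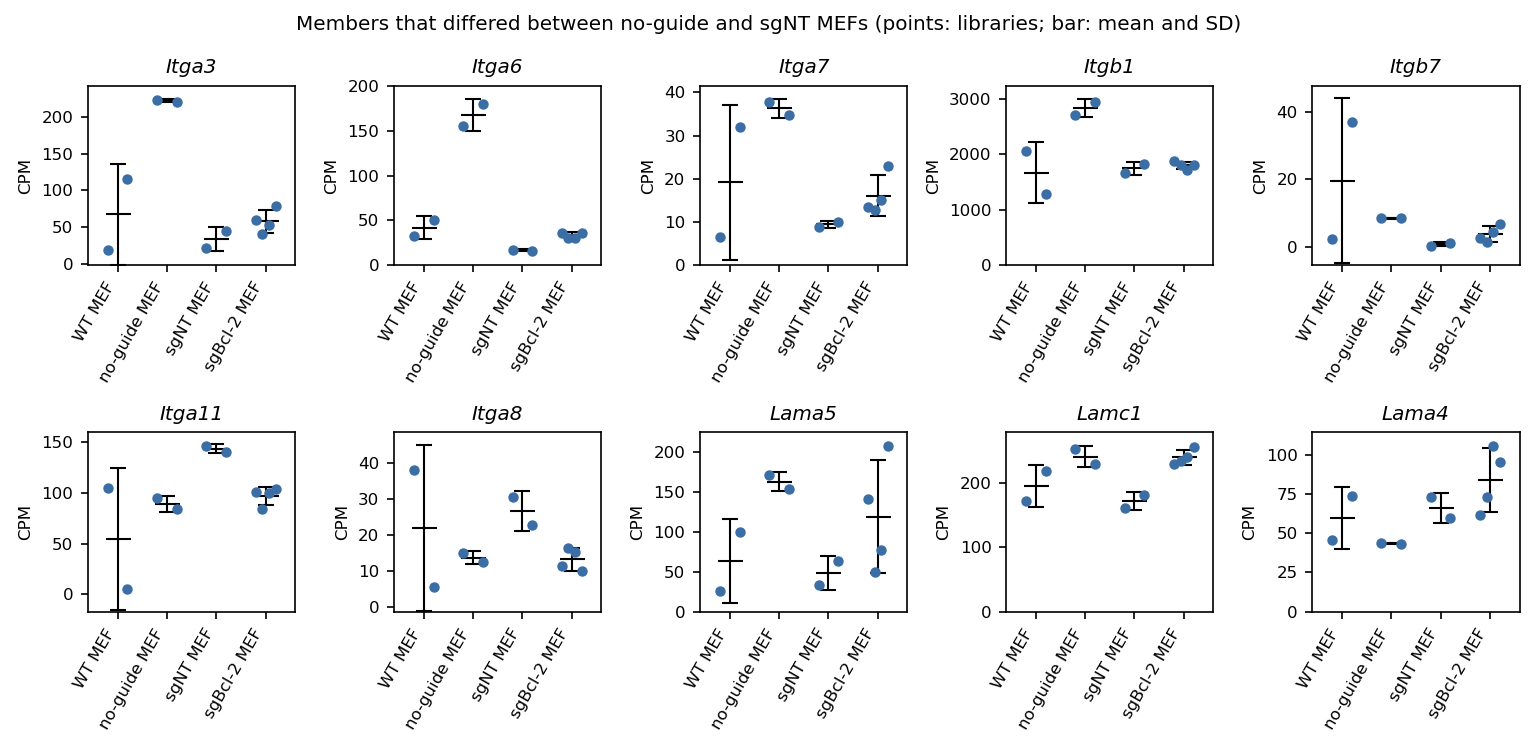
CPM (linear axis from 0 or below) of 10 integrin and laminin genes in each library of the 4 MEF groups, with 1 point a library and a bar for the mean and SD. Itga6, Itga3 and Itga7 are highest in the 2 no-guide libraries, and the 2 WT libraries lie far apart for Itga3, Itga11 and Itgb7.

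Among 24 genes of the adhesion machinery (talins, kindlins and their partners), 23 were tested in this comparison, of which 3 were higher in sgNT (Tln2, Ptk2b and Tns1) and 14 lower. Of 20 ligands and basement membrane genes, 16 were tested, with Vcam1 and Icam1 higher and 8 lower. Agrn, a heparan sulphate proteoglycan that binds laminin, was at 160.04 to 178 CPM without a guide and 21.1 to 23.1 CPM with sgNT. Vcam1, a ligand of alpha4beta1, was at 61.2 to 72.2 CPM and 154 to 191 CPM in the same order. The epithelial marker list summed to 13.4 and 20.5 CPM without a guide and 0.633 to 0.828 CPM with sgNT, the skeletal muscle list to 159 and 191 CPM and 69.0 and 64.3 CPM in the same order, and 10 of 12 fibroblast markers tested were higher in sgNT. Of 4 macrophage markers tested 2 were higher (Csf1r and Lyz2) and 0 lower. Of 4 endothelial markers 2 were higher (Tek and Emcn) and 2 lower (Cdh5 and Kdr). The part of these cell type markers in the differences was not tested.

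With all 10 MEF libraries in the fit, so that the WT pair entered the spread, 1 member (Itga6) was called, beside 5.94% of all genes. With the 8 dCas9a-SAM libraries, an alternative chosen after seeing the data, 15 were called, beside 35.7%. With the MEF line as a block, which the labels give, 18 were called, beside 36.9%, and Itgb5 lost its call (adjusted p = 0.0585). Leaving out 1 library at a time gave 14 to 17 called members, beside 27.2% to 31.9% of all genes: Itga1 lost its call without sgNT library 2 (adjusted p = 0.0578), Itga4 without sgNT library 2 or no-guide library 1 (0.0666 and 0.0586), Itgb5 without sgNT library 1 or no-guide library 1 (0.180 and 0.234), and Itga5, Itgb6 and Lama2 without sgNT library 1 or either no-guide library (0.0508 to 0.172). Lama4 lost its call with the 8 libraries (0.0580), Lama2 with DESeq2 (0.0783), and Itga5, Itgb5, Itgb6 and Lama2 without the low-value filter (0.0596 to 0.0745).

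The guide to Bcl-2 was compared with sgNT in the same dCas9a-SAM MEFs, which shares the sgNT libraries with the comparisons above. Of 32 members tested 6 were called by limma: 4 higher (Itga6, Itgb2, Lama2 and Lamc1) and 2 lower (Itga11 and Itga8) with sgBcl-2. Of all 14676 genes tested, 10.8% were called, 6.61% higher and 4.24% lower. The members' median log2 difference was 0.15 and that of all genes -0.01. All the called members but Itgb2 had differed in the opposite direction between sgNT and no guide. There sgNT was lower in Itga6, Lama2 and Lamc1 (log2 differences -3.33, -0.31 and -0.51) and higher in Itga11 and Itga8 (0.67 and 0.94). The part of the shared sgNT libraries in both sets of differences was not tested.

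Itga6 was at 36, 29.8, 30.2 and 36 CPM with sgBcl-2 and 17.3 and 16.2 CPM with sgNT, and rose by 1.06 ± 0.11 (log2, SE; adjusted p = 0.00244). Lamc1, the gamma chain of most laminins, was at 230.3, 235, 241 and 257 CPM with sgBcl-2 and 162 and 182 CPM with sgNT, a rise of 0.57 ± 0.08 (adjusted p = 0.00728). All sgBcl-2 libraries exceeded both sgNT libraries in these genes. Lama2, a laminin chain of muscle and nerve sheath, was at 45.8, 52.4, 43.7 and 40.5 CPM against 29.2 and 31.8 CPM, a rise of 0.66 ± 0.10 (adjusted p = 0.00856).

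Itgb2, the beta chain of leukocyte integrins, was at 0.389, 0.452, 0.606 and 1.03 CPM with sgBcl-2 and 0.0975 and 0.124 CPM with sgNT, and rose by 1.75 ± 0.42 (adjusted p = 0.0341), with both sgNT values at or under the level of 3 reads. Itga11 was at 101, 83.7, 99.98 and 104 CPM against 147 and 140.4 CPM, and fell by 0.48 ± 0.10 (adjusted p = 0.0198). Itga8 was at 11.2, 16.5, 15.3 and 9.86 CPM against 30.7 and 22.8 CPM, and fell by 0.94 ± 0.21 (adjusted p = 0.0264). For both falling genes the sgBcl-2 libraries lay wholly below sgNT. Itgb7, at 2.64, 1.39, 4.24 and 6.82 CPM with sgBcl-2 and 0.341 and 1.16 CPM with sgNT, had a log2 difference of 2.24 ± 0.62 and an adjusted p of 0.0541. Lama5 was at 141 and 49.6 CPM in sgBcl-2 libraries of MEF line 1, against 33.5 CPM in sgNT, and at 76.8 and 208 CPM in those of line 2, against 63 CPM. It overlapped between the groups but not within a line, and was not called, with a log2 difference of 1.25 (adjusted p = 0.157). Of 18 alternatives 1 called it, with the sgBcl-2 libraries summed per line and the line as a block (1.40, adjusted p = 0.000152). Summing removes the spread between the libraries of a line, so that p-value does not measure it.

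With the MEF line as a block, which the labels give, 10 members were called, beside 14.6% of all genes, 8 higher and 2 lower: the 6 above and Itga3, Itga7, Itgb7 and Lamb1. With the sgBcl-2 libraries summed per line and the same block the count was 12, beside 17.6% of all genes. The spread between libraries of a line does not enter that fit. Without sgNT library 1 only Itga6 was called, beside 1.04%, and without sgNT library 2 only Itga6 and Lamc1, beside 1.32%. Itga8 also lost its call without sgBcl-2 library 1 (adjusted p = 0.0585), and Itgb2 without library 2 or 3 (0.0508 and 0.0584), with voom (0.0594) and with a pseudocount of 0.5 or 1 (0.0616 and 0.0806), where its log2 difference was 0.87 and 0.55. Of the adhesion machinery 22 genes were tested, with 3 higher (Pxn, Bcar1 and Src) and 1 lower (Tln2), and of the ligands and basement membrane genes 16, with 3 higher (Nid1, Dag1 and Vcam1) and 0 lower. The epithelial list summed to 1.94 to 3.43 CPM with sgBcl-2 and 0.633 and 0.828 CPM with sgNT, with Krt8 higher. Of 12 fibroblast markers tested 3 were higher (Dcn, Fbn1 and Loxl1), of 5 macrophage markers 1 was higher (Mpeg1) and 1 lower (Lyz2), and of 3 endothelial markers 1 was lower (Emcn). Their part in the differences of Itga6, Itgb2 and the laminins was not tested.

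Next, the 6 lymphoma lines were set against the sgBcl-2 MEFs, which share activator and guide but differ in cell type, the Eµ-Myc transgene and medium. Of 33 members tested 29 were called, 5 higher and 24 lower in the lines. Over all 14620 genes 81.3% were called, 36.3% higher and 45% lower. The median log2 difference was -3.86 for the members and -0.27 for all genes. The chains that were higher in the lines were the leukocyte chains Itgb2, Itgal, Itgam and Itgae and the alpha4 chain, and all 9 laminin chains tested were lower.

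Itga4, which pairs with Itgb1 or Itgb7 to bind VCAM-1 and MAdCAM-1, was at 168, 306 and 341 CPM (lowest, median and highest line) and at 17.5, 23.8, 16.6 and 22.5 CPM in the MEFs. It was higher by 3.62 ± 0.22 on the log2 scale (adjusted p = 6.47e-08). Itgb2 was at 14, 19.1 and 27.6 CPM in the lines and at most 1.03 CPM in the MEFs, higher by 4.69 ± 0.29 (adjusted p = 7.45e-08). Neither gene overlapped between the groups. Itgae, the partner of beta7 in T cells of epithelia, was higher by 2.52 ± 0.30 (adjusted p = 1.67e-05) at 0.69 to 1.46 CPM in the lines, and Itgam, a myeloid chain, by 3.51 ± 0.71 (adjusted p = 0.000939). Itgal was at 0.0862 to 4.66 CPM in the lines and 0.0429 to 0.113 CPM in the MEFs and overlapped, with a log2 difference of 2.61 ± 0.84 (adjusted p = 0.015), and it no longer passed the low-value filter when any 1 of the 4 IgM-positive lines was left out.

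Itgb1 was at 186, 194 and 244 CPM (lowest, median and highest line) and at 1880.3, 1803, 1717 and 1796 CPM in the MEFs, lower in the lines with a log2 difference of -3.33 ± 0.09 (adjusted p = 1.26e-10). Itgav, the alpha chain of the vitronectin receptors, was at 25.7, 36.3 and 85.3 CPM against 484 to 555 CPM, with a difference of -3.86 ± 0.29 (adjusted p = 3.31e-07). These genes fell but stayed well above the counting limit in each line. Itga5 was at 0.0391, 0.382 and 1.09 CPM against 299.6 to 396 CPM, with a difference of -9.88 ± 0.51 (adjusted p = 1.64e-08), and was near the counting limit in the lines. All 4 beta chains that pair with alphav (Itgb3, Itgb5, Itgb6 and Itgb8) were lower. Of these Itgb5 was at 2.55 to 21.2 CPM in the lines and 249 to 298 CPM in the MEFs, a difference of -5.51 (adjusted p = 7.23e-06).

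Lamb1 was at 0.117, 0.437 and 1.94 CPM in the lines and 457, 484, 472 and 523 CPM in the MEFs, a difference of -9.82 ± 0.49 (adjusted p = 1.24e-08). Lamc1 was at 59.4, 68.5 and 115 CPM against 230.3 to 257 CPM, a difference of -1.83 ± 0.20 (adjusted p = 9.43e-06). The gamma1 chain was thus above 59 CPM in every line while its usual beta1 partner was under 2 CPM. Lamb2, the beta chain of synaptic and kidney laminins, was at 0.0391 to 9.11 CPM with a median of 7.34 CPM, against 175 to 211 CPM. Lama2 had a median of 0.0398 CPM in the lines, and Lama4 was at 0 in 5 of 6 lines. Lama5 was at 0.15 to 1.51 CPM in 5 lines and 26.4 CPM in IgM-positive line 1, against 49.6 to 208 CPM.

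Itga6 did not pass the test: it was at 13.8, 27 and 50.5 CPM in the lines and 29.8 to 36 CPM in the MEFs, with a log2 difference of -0.50 ± 0.31 (adjusted p = 0.159). Itga9, a partner of beta1, was at 3.34, 36.5 and 52 CPM against 7.08 to 10.2 CPM (1.37 ± 0.68, adjusted p = 0.0833), and IgM-positive line 3 was the one under the MEF range. Without that line the Itga9 difference was 1.94 with an adjusted p of 9.28e-05. Itga9 was called higher in 4 of 20 alternatives and not in the other 16. The others that called it were DESeq2, edgeR and all 8 dCas9a-SAM MEF libraries (adjusted p = 0.00644, 0.0182 and 0.0179). Itgb4 and Lamb3 were called lower with groups that overlapped (adjusted p = 0.0126 and 0.0239), and Lamb3 lost its call without sgBcl-2 MEF library 1, 2 or 4 (adjusted p = 0.0542, 0.0624 and 0.0524) and with DESeq2 or edgeR (0.0971 and 0.118). When tumour libraries replaced the lines of the same mice, neither was called (0.102 for Itgb4 and 0.274 for Lamb3). Itga6 was called lower in that fit (-0.71, adjusted p = 0.0220).

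**Figure D4:**
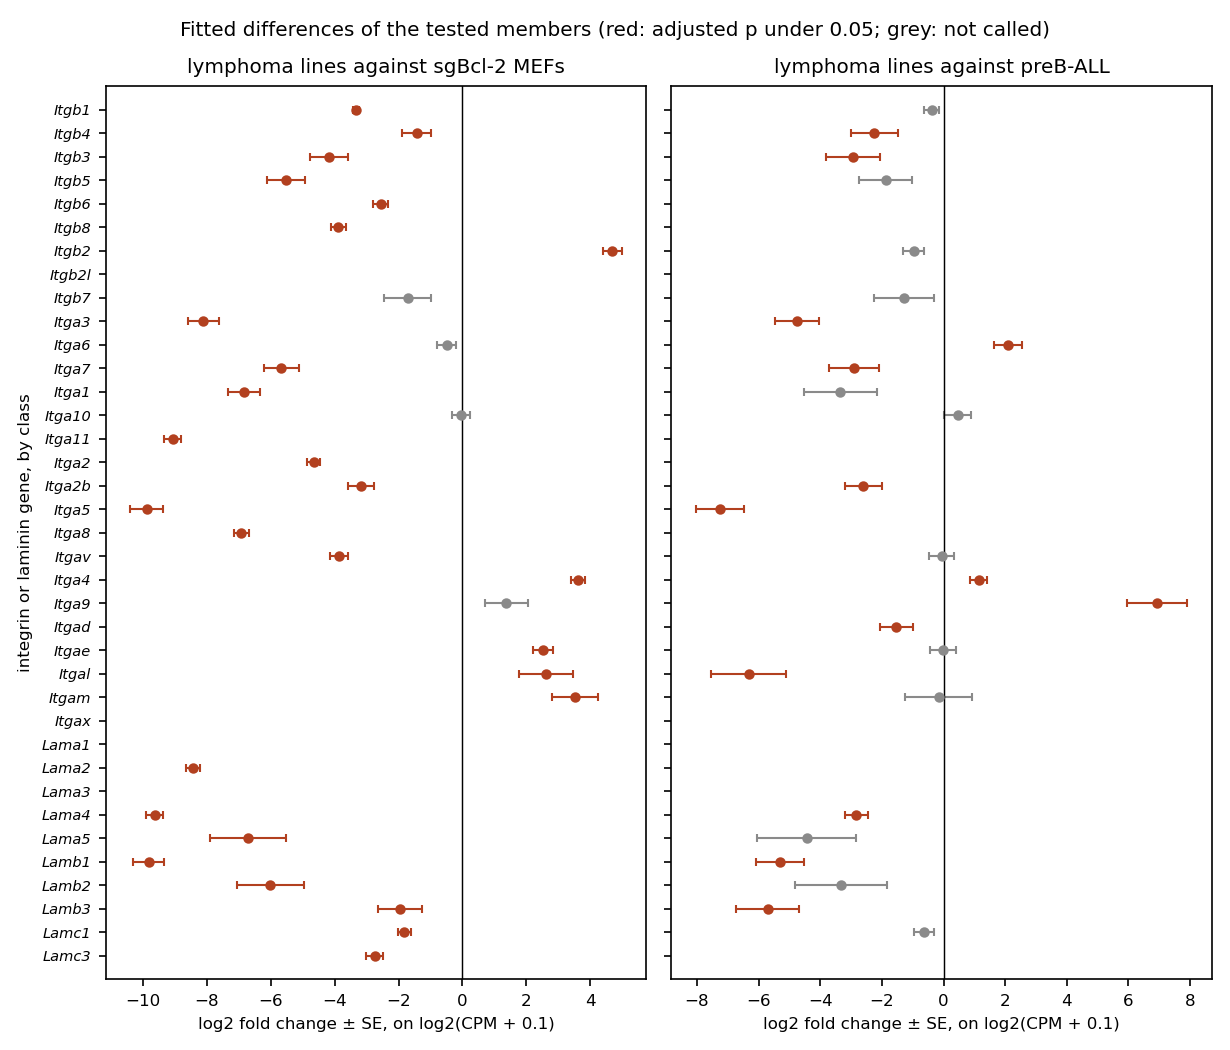
Log2 difference in CPM of the integrin and laminin genes tested and shown, with its standard error (red points: adjusted p under 0.05, grey: not called), for the 6 lymphoma lines against the 4 sgBcl-2 MEF libraries and against the 2 preB-ALL lines. Itga4 lies above 0 in both comparisons (3.62 and 1.14), and Itga5 and Lamb1 lie far below 0 in both.

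In the adhesion machinery list 23 genes were tested, with 3 higher in the lines, Fermt3 (the haematopoietic kindlin), Ptk2b and Parvg, and 19 lower. Fermt3 was at 115 to 209 CPM in the lines and 0.264 to 0.767 CPM in the MEFs, while Fermt2, the kindlin of fibroblasts, was at 0 to 0.187 CPM and 237 to 292 CPM. The kindlin gene with the higher level thus differed between the cell types. Of 17 ligand and basement membrane genes tested, 1 was higher, Icam2 (a ligand of LFA-1, at 36.8 to 53.2 CPM in the lines), and 15 were lower.

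The lymphoma lines were then compared with the preB-ALL lines, B lineage cells without the activator, which shares the lymphoma libraries with the comparison above. Of 27 members tested 15 were called, 3 higher and 12 lower in the lymphoma lines, against 43.4% of all 13961 genes (20.9% higher and 22.5% lower). The median log2 difference was -2.24 for the members and -0.07 for all genes. Higher in the lymphoma lines were Itga4, Itga6 and Itga9. Among the lower were Itga5, Itga3, Itga7, Itga2b, Itgal, Itgad, Itgb3, Itgb4, Lama4, Lamb1 and Lamb3. The preB-ALL lines differed in oncogene, medium, RNA kit and sequencing run, which cannot be told apart from the cell type.

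Itga9 was at 3.34 to 52 CPM in the lymphoma lines and 0.0668 and 0.24 CPM in preB-ALL, higher by 6.94 ± 0.97 (log2, SE; adjusted p = 0.000721). Itga6 was at 13.8 to 50.5 CPM against 9.02 and 6.73 CPM, higher by 2.10 ± 0.45 (adjusted p = 0.00635). Itga4 was at 168 to 341 CPM against 159 and 166 CPM, higher by 1.14 ± 0.28 (adjusted p = 0.0125). None of these genes overlapped, although for Itga4 IgM-positive line 2 lay just above the preB-ALL values.

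Itgal was at 108 and 115 CPM in preB-ALL and at 0.0862, 0.873 and 4.66 CPM (lowest, median and highest) in the lymphoma lines, a log2 difference of -6.33 ± 1.21 (adjusted p = 0.0036). Its partner Itgb2 was at 32.6 and 73.9 CPM in preB-ALL and 14 to 27.6 CPM in the lymphoma lines (-0.97, adjusted p = 0.0514). The log2 difference of the alpha chain of LFA-1 was larger than that of the beta chain, and the difference between them was not tested. Itgb2 was called in 7 of 17 alternatives: with DESeq2, edgeR, voom, RLE scaling or no scaling (adjusted p from 0.0101 to 0.0489), and without IgM-positive line 1 or preB-ALL library 1 (0.0393 and 0.0209).

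Itga5 was at 89.8 and 69.7 CPM in preB-ALL and at most 1.09 CPM in the lymphoma lines, a difference of -7.25 ± 0.78 (adjusted p = 0.000156). Lamb1 was at 41.3 and 21.7 CPM against at most 1.94 CPM (-5.30 ± 0.78, adjusted p = 0.000917), and Itga3 at 5.95 and 9.06 CPM against at most 0.45 CPM (-4.75 ± 0.71, adjusted p = 0.00103). Each preB-ALL value lay above each lymphoma value in these genes. Lamb3, the beta chain of epithelial laminin, was at 17.6 and 30.9 CPM in preB-ALL and 0 to 1.13 CPM in the lymphoma lines (-5.70 ± 1.03, adjusted p = 0.00266), above its highest MEF level of 3.76 CPM. Lamc1 was not called, at 196 and 118 CPM against 59.4 to 115 CPM (-0.63, adjusted p = 0.156). The fibroblast list summed to 3021 and 1396 CPM in these preB-ALL libraries, with 9 and 10 of its 12 genes at or above 1 CPM and Dcn at 0. The skeletal muscle list summed to 15.1 and 34.9 CPM against at most 0.811 CPM in the lymphoma lines, the macrophage list to 10.2 and 18.4 CPM against at most 5.35 CPM, and the platelet and megakaryocyte list to 3.87 and 3.69 CPM against at most 1.12 CPM. Their part in the levels of Itga5, Itga3, Itga7, Itga2b and the laminins was not tested.

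Without preB-ALL library 1, 8 of the 15 members and Itgb2 were called, beside 35.3% of all genes. Lama4 did not pass the filter on low values in that fit, and Itga4, Itga7, Itgb3, Itgb4 and Itgad lost their call (adjusted p from 0.0512 to 0.345). Without preB-ALL library 2, Itga2b, Itga4, Itga6, Itga7 and Itgb3 lost theirs (0.0767 to 0.195), beside 22.2% of all genes called. Itgad also lost its call without IgM-positive line 2, 3 or 4 or either IgM-negative line (0.0605 to 0.0824), and Itgb4 without IgM-positive line 1, 2 or 3 or either IgM-negative line (0.0502 to 0.0705). With other processing, Itga9 and Itgad lost their call with voom (0.0964 and 0.0512), Lama4 with DESeq2 (0.161), Itgad and Itgb4 without the low-value filter (0.0803 and 0.0518), and Itgal, Itgad and Itgb4 when tumour libraries replaced the lines of the same mice (0.107, 0.700 and 0.154). Of the adhesion machinery 23 genes were tested, with Ptk2 higher and 13 lower in the lymphoma lines, and of the ligands and basement membrane genes 15, with 0 higher and 10 lower, among them Fn1 (1.01 to 4.35 CPM against 1090.4 and 2851 CPM) and Vcam1.

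**Figure D5:**
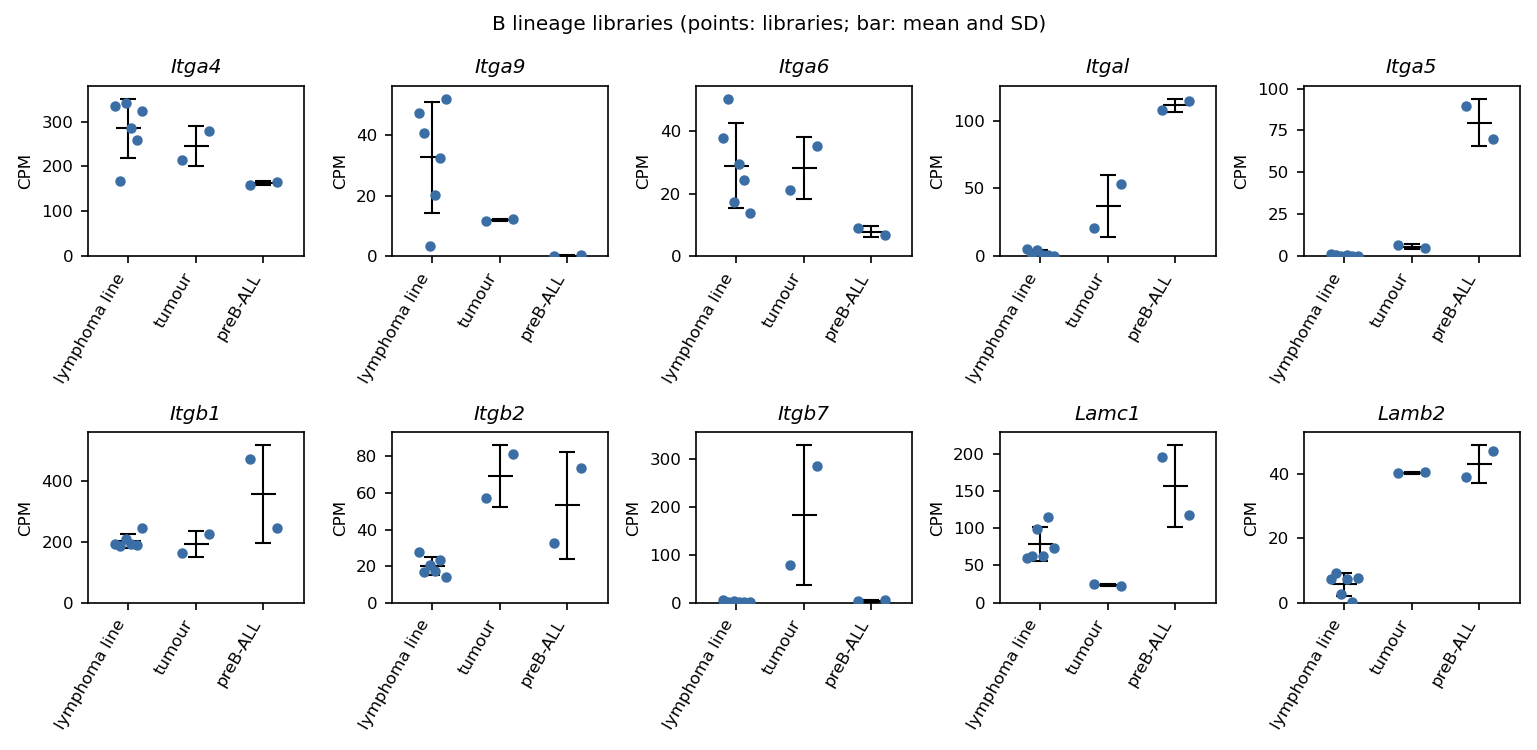
CPM (linear axis) of 10 integrin and laminin genes in each lymphoma line, primary tumour and preB-ALL line, with 1 point a library and a bar for the mean and SD. Itgal separates preB-ALL (108 and 115 CPM) from the lymphoma lines (at most 4.66 CPM), and Itgb7 is highest in the 2 tumours (78.7 and 286 CPM).

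IgM-negative and IgM-positive lymphoma lines were compared to ask whether the surface phenotype went with different adhesion genes. Of 21 members tested 0 were called by limma, against 0.597% of all 12386 genes. At an unadjusted p under 0.05 there were 4 members, beside 11.3% of all genes, DESeq2 called 1 (Itgal), beside 6.05% of all genes, and edgeR and voom called 0. Itgal was at 0.352 and 0.0862 CPM in the IgM-negative lines and at 4.66, 0.9, 4.47 and 0.846 CPM in the IgM-positive lines, with a log2 difference of -2.83 (adjusted p = 0.339). Itgb5, a partner of alphav, was at 13.3 and 21.2 CPM against 2.55, 2.89, 10.1 and 3.83 CPM, with a difference of 2.06 (adjusted p = 0.298). Itgam and Itga5 were the other members under the unadjusted threshold. The groups did not overlap in any of these genes. They were picked by that threshold in the same libraries, so the lack of overlap adds no support.

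Itga4, at 258 and 325 CPM in the IgM-negative lines and 336, 168, 341 and 286 CPM in the IgM-positive lines, and Itgb1, at 189 and 244 CPM against 194, 186, 209.8 and 193 CPM, overlapped. Lamc1 was at 115 and 73.6 CPM against 59.4, 63.3, 99 and 63.3 CPM and overlapped too. Lamb2 was at 0.0391 CPM in IgM-negative line 1 and 7.59 CPM in IgM-negative line 2, and at 2.69 to 9.11 CPM in the IgM-positive lines.

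The primary tumours were compared with IgM-positive lines 1 and 2, which came from the same pair of mice. Of 24 members tested 0 were called by limma, against 0.33% of all 12719 genes, while 11 had an unadjusted p under 0.05, as had 25.9% of all genes. DESeq2 called 12, 9 higher and 3 lower in the tumours, beside 16.5% of all genes, and edgeR and voom called 0. The titles and the descriptions of the tumour samples pair the mice in opposite ways. With the mouse as a block, 11 members were called by title, beside 28.3% of all genes. By description 0 were called, beside 0 of all genes. Either block fit leaves little spread between libraries to measure.

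Itgb7, the mucosal homing chain that pairs with alpha4, was at 78.7 and 286 CPM in the tumours and at 4.91 and 0.412 CPM in IgM-positive lines 1 and 2, a log2 difference of 6.50 ± 1.32 (adjusted p = 0.0844). Over all 6 lines its level was 0.349 to 4.91 CPM. Itgal was at 20.6 and 53.4 CPM in the tumours against 4.66 and 0.9 CPM (3.88 ± 0.96, adjusted p = 0.106). Both tumours lay above each of the 6 lines for Itgb7 and Itgal, and the tumours also differed from each other. Itgb2, at 57.4 and 81.3 CPM against 27.6 and 17 CPM, had a difference of 1.60 ± 0.36 (adjusted p = 0.095). Itga4 overlapped, at 213.6 and 278 CPM in the tumours and 336 and 168 CPM in their lines, as did Itgb1 at 163 and 225 CPM against 194 and 186 CPM.

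Lamb2 was at 40.3 and 40.6 CPM in the tumours and 7.22 and 9.11 CPM in their lines, a difference of 2.26 ± 0.24 (adjusted p = 0.0558). Lamc1 was at 24.6 and 22.2 CPM against 59.4 and 63.3 CPM, a difference of -1.44 ± 0.18 (adjusted p = 0.0641). Itga9 was at 11.7 and 12.1 CPM against 47.3 and 40.7 CPM, a difference of -1.93 ± 0.23 (adjusted p = 0.0639). The tumour pairs agreed closely in these genes and lay outside the range of their lines, short of the threshold. Itga1, Itga5, Itgad, Itgae and Itgax had differences of 1.68 to 4.03 (adjusted p from 0.0711 to 0.112).

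Itgax, a chain of dendritic cells and macrophages, was at 1.4 and 4.54 CPM in the tumours and 0 to 0.0811 CPM in the 6 lines, and Itgam was at 14.9 and 14.8 CPM against 0.547 to 9.94 CPM. The macrophage list summed to 31.5 and 24.1 CPM in the tumours against 2.66 to 5.35 CPM in the lines, with 5 of its 10 genes at or above 1 CPM in the tumours, the T and NK cell list to 1.7 to 4.34 CPM, the neutrophil list to 1.40 and 3.54 CPM against 0 to 0.0375 CPM, and the erythroid list to 1.66 and 2.74 CPM against at most 0.846 CPM. Their part in the tumour levels of Itgb7, Itgal, Itgb2 and Itgax was not tested. Without the mouse block, the 4 IgM-positive lines in place of the pair of own lines gave 10 called members, 9 higher and 1 lower, beside 10.9% of all genes, and all 6 lines gave 9, 8 higher and 1 lower, beside 19.7%.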

How the data were processed

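RNA-seq libraries (TruSeq v2) were aligned by the authors with Rsubread to GRCm38/mm10, counted per Entrez gene and deposited as CPM; whether strand was used in counting is not given in the sources used here, so Itga1, Itga4, Itga7, Itga8, Itgad, Itgae, Itgb2l and Itgb4, which overlap a neighbouring gene, are uncertain to that extent. The deposited CPM steps gave whole reads for 100% of values (tolerance 0.001), and these reads served the low-count filter (edgeR filterByExpr 4.0.16) and the count tests.

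The main test was limma 3.58.1 (R 4.3.3) with a trended variance on log2(TMM-scaled CPM + 0.1), with Benjamini-Hochberg adjustment over all genes tested and a threshold of 0.05. Log2 differences are on this scale and understate the change of low genes. Only the compared libraries entered each of 7 fits. CPM per kb used the longest annotated transcript of each gene. Alternatives were DESeq2 1.42.0, edgeR quasi-likelihood and voom on recovered reads, other scalings, filters, pseudocounts and sample sets, each library left out, and replicate blocks. The 8 dCas9a-SAM MEF libraries in the fit were added after seeing the data. The script was tested on simulated data with 200 genes changed 8-fold in each comparison. All 200 were called for sgNT against no guide and for sgBcl-2 against sgNT. For lymphoma lines against sgBcl-2 MEFs 174 were called, and 145 to 155 in the other comparisons. Unchanged genes called numbered 11 to 28, most in sgNT against no guide. Single calls can thus be false, and a count of 0 does not exclude a change.

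The members, gene lists and tests were chosen with earlier results of these data known. By rule, values were given for members that passed a test (up to the 8 with the smallest adjusted p in each direction), those of the highest CPM per kb in their class and their known partner chains; other members named were chosen after their values were seen. Values are per library, or lowest, median and highest for groups over 5. The floor (3 reads) covers counting error only, and values after ± are the SD between libraries or the SE of the fit. The labels do not say that all libraries of a group came from separate cultures, so p-values measure the spread between these libraries. The MEF line number pairs the sgBcl-2, sgNT and no-guide libraries by their labels. Over 15158 genes the correlation of line differences was 0.33 for sgBcl-2 with sgNT. It was -0.047 for sgNT with no guide and 0.055 for sgNT with WT. The pairing of sgNT with no guide thus rests on the labels alone. No replicate pair agreed within sampling noise. The values of 1 member, which is counted among the 38, are not reported here.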

Additional observations from a re-analysis of the deposited data

Results flagged for a closer look

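Of 56 combinations of a member and a group of 4 or 6 libraries with a group median of at least 1 CPM, 5 had a library far from the others of its group by Dixon's criterion, where chance gives about 1 in 20. Itga9 in IgM-positive line 3 was at 3.34 CPM against 20.1 to 52.0 CPM in the other lymphoma lines. Lamb2 in IgM-negative line 1 was at 0.0391 CPM against 2.69 to 9.11 CPM. Lamc1 in IgM-positive line 3 was at 99 CPM against 59.4 to 63.3 CPM in the other IgM-positive lines. It was not flagged among all 6 lymphoma lines. The IgM-positive lines were tested both alone and within all 6 lines, so the combinations are not independent. Itga11 in sgBcl-2 MEF library 2 was at 83.7 CPM against 99.98 to 104 CPM, and Itgb3 in sgBcl-2 MEF library 3 was at 21.0 CPM against 17.1 to 17.5 CPM.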

How the results depend on the processing

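No called member reversed direction under an alternative. For lymphoma lines against sgBcl-2 MEFs, 27 of 29 called members kept their call in every alternative in which they were tested, against 5 of 15 for lines and preB-ALL, 1 of 19 for sgNT and no guide and 1 of 6 for sgBcl-2 and sgNT (Itga6 in both). Members called by sgNT against WT moved from 0 to 1 with DESeq2 (0.57% of all genes) and to 1 with all 10 MEF libraries (0.449%), and to between 0 and 22 with 1 library left out. For sgNT against no guide the 19 became 1 with all 10 MEF libraries, 18 with the MEF line as a replicate block (Itgb5 lost, adjusted p = 0.0585) and 14 to 17 with a library left out. For sgBcl-2 against sgNT the 6 became 10 with DESeq2 (14.1% of all genes), 1 with all 10 MEF libraries (0.422%), 10 with the MEF line as a replicate block, 12 with sgBcl-2 libraries summed per line and the block, and 1 to 7 with a library left out. For lines against preB-ALL the 15 ranged from 9 to 16 with a library left out. For IgM-negative against IgM-positive lines DESeq2 gave 1 in place of 0 (6.05% of all genes). For tumours against their lines the 0 became 12 with DESeq2, 10 with the 4 IgM-positive lines, 9 with all 6 lines and 11 with the mouse by title as a replicate block, and stayed at 0 with the mouse by description. The cause was not tested. Over all genes, no scaling changed the calls of sgBcl-2 against sgNT from 970 higher and 622 lower to 710 and 1137, and those of lines against preB-ALL from 2914 and 3145 to 1691 and 4400, where the median of all genes moved from -0.07 to -0.42. RLE scaling moved that of lines against MEFs from -0.27 to -0.46, and no scaling moved it to -0.10. Where a fit left 1 library in a group, that library is assumed to vary like the other group. In single libraries 3 reads correspond to 0.112 to 0.240 CPM, by library.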
